A study of Mus musculus with 43 samples.

Results

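The 8 h retinoic acid (RA) response of Stra8-knockout (KO) germ cell cultures was compared with that of wild-type (WT) cultures, as the difference RA minus DMSO in each of 3 KO lines (KO12, KO20, KO21) against the same difference in each of 3 WT lines (WT17, WT23, WT25). These differences use 12 of the 42 libraries of the deposited table, all taken at 8 h. The cultures descend from THY1-positive testis cells of wild-type or Stra8-knockout mice, kept on STO feeder cells (a mouse embryo fibroblast line) in serum-free medium with GDNF, GFRA1 and FGF2, all groups alike, between passages 3 and 12. The RA groups received all-trans RA, whose dose the labels write as 0.01M without saying whether this is a stock or the culture concentration, and the control groups received 0.01% DMSO. The untreated groups (0 h), RA at 4 h, and DMSO and RA at 24 h, again with the same 3 lines per genotype, supplied the spread and the values set beside the 8 h results. The labels call the lines replicates but give neither their mice of origin, the deleted part of Stra8 nor the animals' age. P-values of RA effects and of their genotype difference measure how these lines varied in their changes between conditions, pooled over the 12 groups of the fit. Those of KO against WT within a condition treat the libraries of a line as independent. Neither kind reaches beyond these lines.

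RA is made from vitamin A and acts through nuclear receptors (RARs), which recruit corepressors without ligand and activate transcription with it. In the testis it drives undifferentiated spermatogonia, which depend on GDNF and FGF2 signalling, to differentiate, and later to enter meiosis. Stra8 is an RA-induced gene whose protein works with MEIOSIN to switch on meiotic genes, and mice without it fail to complete meiotic entry.

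The cultures carried germ cell transcripts at high levels (9 of 10 germ cell markers were tested, Dazl averaged log2 15.06 over the 12 libraries, Dppa3 was not tested), and feeder fibroblast markers were measured beside them, with Fn1 at a mean of log2 14.14. In a mixture of this kind, fewer cells of a type and less RNA per cell cannot be told apart. No 8 h library stood apart, since their residual SDs lay between 0.10 and 0.15 on the log2 scale. The 6 DMSO libraries at 4 h were left out by plan, because the submitters' column names carry remarks on 2 of them. These read "outl" for WT25 and "tracksWithKORA24h" for KO20, and WT23 has none. Stra8 lay far from its group in the library labelled WT23, at log2 11.59 against 7.93 and 8.12 in WT17 and WT25. It did so too in the library labelled KO20, at 9.64 against 6.46 and 6.63 in KO12 and KO21.

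The promoters of 3 genes that the comparison turns on are printed from RefSeq (build GRCm38.p6, 250 bases before to 50 after the start, 5′ to 3′ on the gene's strand). Capitals mark AGGTCA or AGTTCA, the half-sites that RAR dimers bind, and CNCCTCAG, the motif known for STRA8 with MEIOSIN, each read on both strands. Stra8 itself (chr6:34920698-34920997, plus strand) holds AGGTCA at 2 places, Ccsap (chr8:123858826-123859125, minus strand, the first of its listed starts) holds both half-sites on the opposite strand, and Tm4sf5 (chr11:70505024-70505323, plus strand), the named gene whose response was higher in KO by the most, holds CNCCTCAG.
Stra8: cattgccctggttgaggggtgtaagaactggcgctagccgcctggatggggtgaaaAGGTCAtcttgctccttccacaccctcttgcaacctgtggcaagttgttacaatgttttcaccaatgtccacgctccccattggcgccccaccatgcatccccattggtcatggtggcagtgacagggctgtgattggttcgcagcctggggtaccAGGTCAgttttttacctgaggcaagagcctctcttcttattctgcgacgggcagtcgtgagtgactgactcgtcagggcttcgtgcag
Ccsap: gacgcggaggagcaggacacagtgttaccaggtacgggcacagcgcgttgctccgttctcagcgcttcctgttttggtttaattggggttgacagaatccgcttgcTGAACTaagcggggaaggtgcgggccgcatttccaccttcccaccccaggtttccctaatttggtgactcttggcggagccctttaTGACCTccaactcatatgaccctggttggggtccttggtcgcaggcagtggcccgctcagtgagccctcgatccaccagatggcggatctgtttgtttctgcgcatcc
Tm4sf5: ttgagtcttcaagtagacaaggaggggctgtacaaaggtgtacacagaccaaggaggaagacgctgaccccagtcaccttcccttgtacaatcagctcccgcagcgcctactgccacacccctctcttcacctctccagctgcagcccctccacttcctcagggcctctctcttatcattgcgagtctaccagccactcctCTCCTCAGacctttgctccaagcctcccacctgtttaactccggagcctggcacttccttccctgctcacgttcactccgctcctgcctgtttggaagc

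Stra8, the targeted gene (chromosome 6, 34920163 to 34939344, build GRCm38.p4), was still measured in the KO lines and was induced there, but less than in WT. At 8 h of DMSO its log2 level was 7.29 in WT17, 7.60 in WT23 and 7.31 in WT25, and 6.37 in KO12, 6.65 in KO20 and 6.27 in KO21. At 8 h of RA it was 12.75, 13.003 and 13.06 in the WT lines and 9.10, 8.51 and 8.63 in the KO lines. All WT lines were above all KO lines under both treatments. The rise was 5.54 ± 0.19 in WT (SD, n = 3 lines, 46.4-fold) and 2.32 ± 0.43 in KO (4.99-fold), and the difference of -3.22 ± 0.32 (SE) passed (limma, adjusted p = 5.61e-06). Untreated KO lines lay at 6.31 to 6.49 and untreated WT lines at 7.63 to 8.91, with WT17 the highest, a difference of -1.67 that passed (limma, adjusted p = 0.00121). At 8 h of DMSO the KO minus WT difference of -0.97 did not pass (limma, adjusted p = 0.138).

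Ccsap, a centriole and spindle associated protein gene (chromosome 8, 123840831 to 123860209), moved in opposite directions in the 2 genotypes. Its log2 level went from 8.70 to 8.24 in WT17, from 8.56 to 8.13 in WT23 and from 8.77 to 8.26 in WT25 between DMSO and RA. It went from 8.34 to 8.69 in KO12, from 8.61 to 9.04 in KO20 and from 8.42 to 8.87 in KO21. Each WT line was lower and each KO line higher under RA, so the line differences do not overlap, as for 16% of all genes in this direction. RA lowered Ccsap by 0.47 ± 0.04 (SD, n = 3) in WT (adjusted p = 4.8e-06) and raised it by 0.41 ± 0.06 in KO (adjusted p = 4.3e-05), a difference of 0.87 ± 0.09 (SE, limma, adjusted p = 3.18e-06). An annotated antisense transcript covers 13.6% of its exon bases, and without the counter's strand setting the reads of the pair cannot be told apart. Ccsap was picked out with earlier results of these data known.

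**Figure D1:**
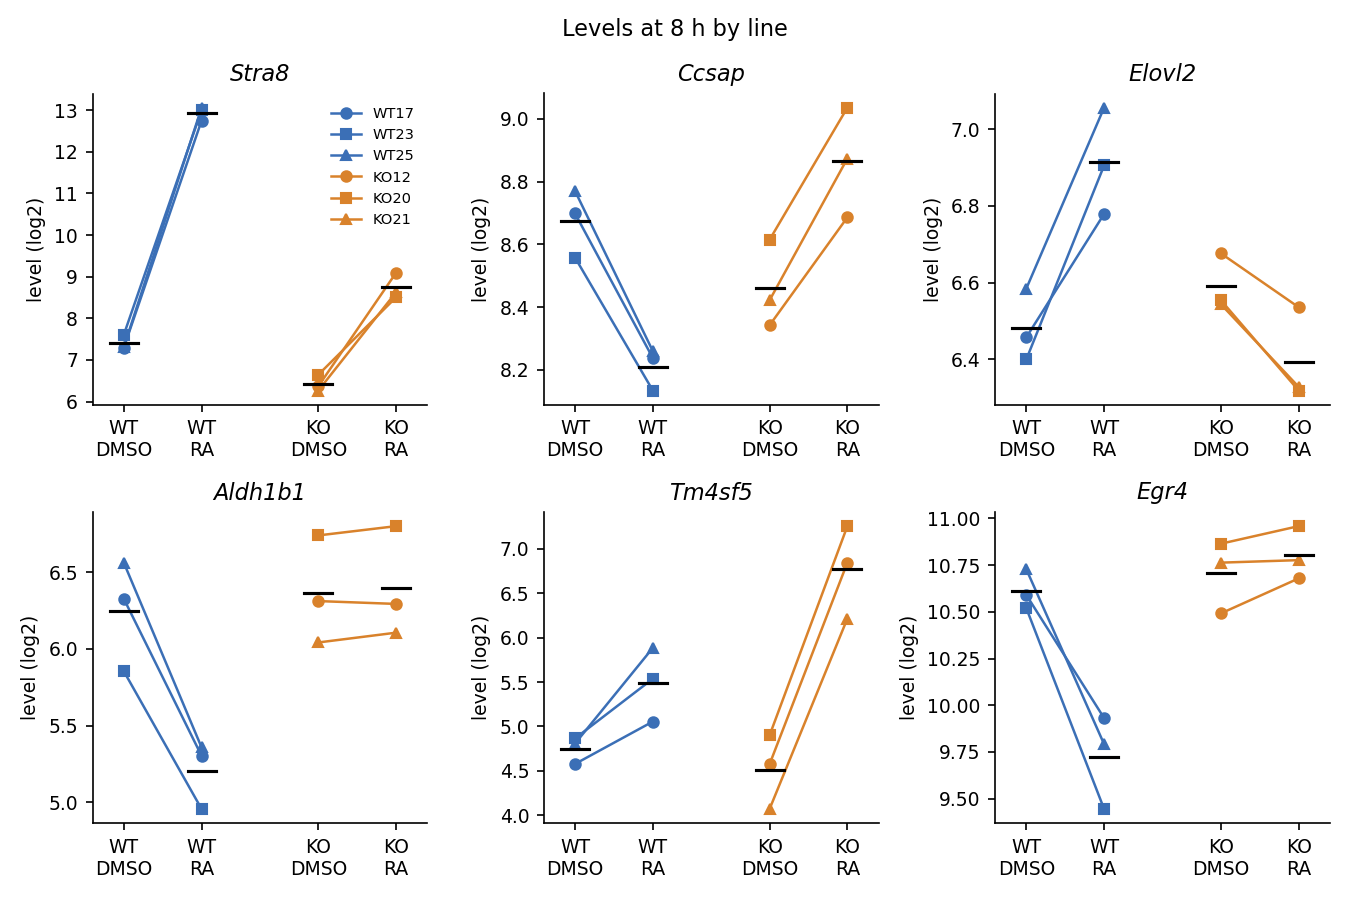
Log2 levels at 8 h of DMSO and RA in each line (points joined within a line; black bars, group means) for 6 genes, with WT in blue and KO in orange and each panel on its own axis, which does not start at 0. Stra8 rises in all 6 lines and further in WT, Ccsap and Elovl2 move in opposite directions in the genotypes, Aldh1b1 and Egr4 are lower under RA in each WT line and close to their DMSO level in the KO lines, and Tm4sf5 rises further in KO.

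Among the genes called, the response was more often higher in KO than lower, whereas 8717 of the 16259 differences over all genes were positive. limma called 578 of 16259 genes (3.55%), 483 with a higher response in KO (2.97%) and 95 with a lower one (0.584%), so 83.6% of the calls were higher. The median difference was 0.46 for the higher calls and -0.25 for the lower ones, against 0.01 over all genes. The 3 KO line differences did not overlap the 3 WT ones in 482 of the 483 and 95 of the 95, where 29.2% of all genes tested are apart in this way (16% higher and 13.2% lower in KO). Calls were made from these same line differences, so this separation comes with the call and is no further support for it. More than a 2-fold difference was found in 22 higher and 1 lower gene, and the lower one is Stra8. The count fell to 72 with no replicate block, rose to 1389 on the 6 line differences alone and was 230, 276, 212, 371 and 279 without KO12, KO20, KO21, WT23 and WT25 (488 without WT17). Of the 59 named genes called, 21 passed in each of the 6 fits that leave out a line and 38 did not pass in at least 1 of them. With quantile normalization 604 genes were called, 385 higher and 219 lower, so the share of higher calls was 63.7%. This share depended on the processing. It was 53.5% with an exon length trend removed from each library, 70.6% with a GC trend removed and 98.1% with all 42 libraries.

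The calls divide by what RA did in each genotype. RA changed 3404 genes in WT (20.9%; 1519 rose, 9.34%, and 1885 fell, 11.6%) and 1906 in KO (11.7%; 1292 rose, 7.95%, and 614 fell, 3.78%). Of the 483 genes with a higher response in KO, 215 fell in WT and were not called in KO (44.5%), 130 were not called in WT and rose in KO (26.9%), 64 rose in both, 49 fell in both, 21 fell in WT and rose in KO, and 4 were called in neither. Of the 95 with a lower response, 78 rose in WT and were not called in KO (82.1%), 10 were called in neither, 6 fell in KO alone by the call, and Stra8 was the 1 that rose in both. The interaction and these RA effects share libraries, so the classes describe the calls and do not test them.

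**Figure D2:**
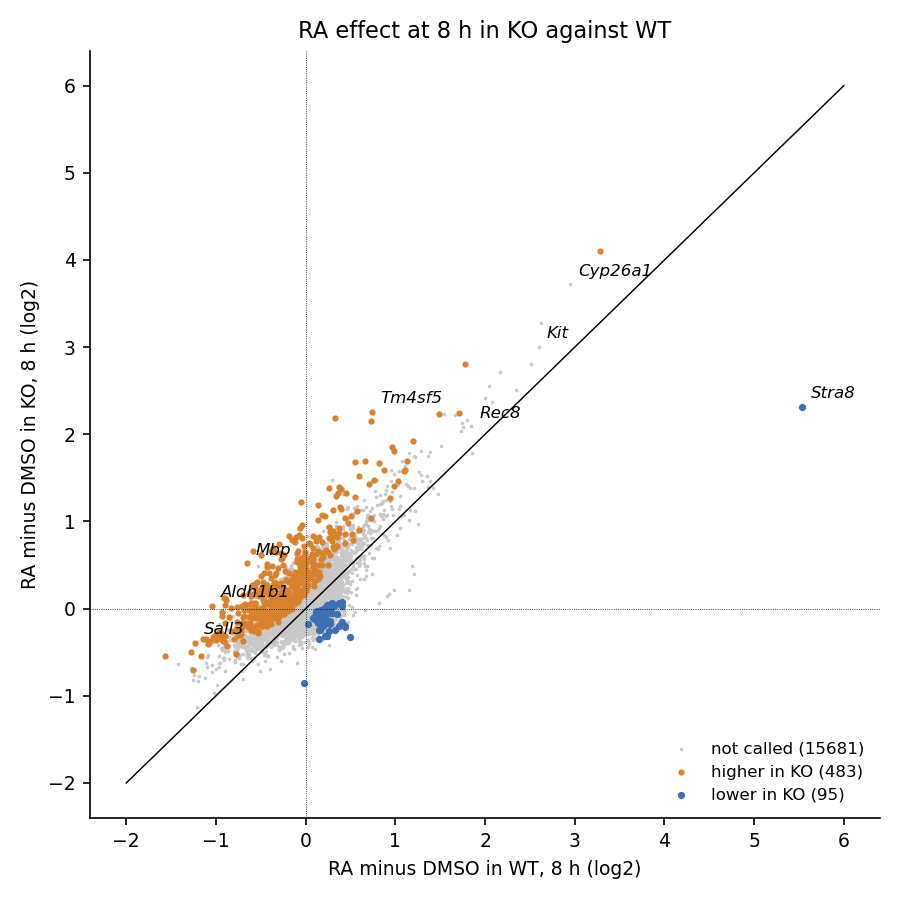
RA minus DMSO at 8 h (log2) in KO against WT for the 16259 genes tested, with called genes coloured and the line of equal effects drawn. The 483 genes above the line reach from genes that fell in WT to genes that rose further in KO, whereas Stra8 lies far to the right of the other 94 genes below it.

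Among the genes with a lower response in KO, none but Stra8 differed by over 2-fold. Elovl2, an elongase of long polyunsaturated fatty acids, went from 6.46, 6.399 and 6.58 to 6.78, 6.91 and 7.06 in the WT lines and from 6.68, 6.55 and 6.54 to 6.54, 6.32 and 6.33 in the KO lines (log2 levels, DMSO to RA). Every WT line was higher and every KO line lower under RA. Its difference was -0.63 ± 0.14 (SE, n = 3 lines, limma, adjusted p = 0.00841). The ADP receptor gene P2ry1 had a difference of -0.57 ± 0.15, Fam124a -0.52 ± 0.14 and the deubiquitinase gene Otub2 -0.51 ± 0.13. Frrs1l, an auxiliary protein of AMPA receptors, followed at -0.42 ± 0.10, with the zinc finger gene Zfp934 at -0.42, the phosphatase gene Ptpn20, Jrkl and AW146154 at -0.41, -0.41 and -0.40, and the actin-binding Ccdc88a at -0.38. Antisense genes overlap 23.1% of the exon bases of P2ry1 and 20.3% of those of AW146154. All of these passed (limma, adjusted p from 0.00841 to 0.0396), but of the 12 named genes in this direction only Stra8 passed in each of the 6 fits that leave out a line.

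Sycp2, a lateral element protein of the synaptonemal complex, was the largest of the meiotic genes in this direction. Its log2 level went from 11.73, 11.73 and 11.83 to 11.92, 11.90 and 11.92 in the WT lines and from 11.94, 11.93 and 11.91 to 11.64, 11.54 and 11.54 in the KO lines. The 3 KO lines were lower under RA and the 3 WT lines higher, with no overlap of the RA levels. The DMSO levels did not overlap either, with the KO lines the higher ones. KO minus WT was 0.16 in DMSO (limma, adjusted p = 0.677) and -0.34 in RA (limma, adjusted p = 0.0168). Part of the difference in response thus lay in the DMSO libraries. Sycp2 fell by 0.35 in KO (adjusted p = 0.012), the WT change of 0.15 did not pass (adjusted p = 0.28), and the difference was -0.50 ± 0.13 (SE, limma, adjusted p = 0.0334). It passed in none of the 6 fits without a line, with a range from -0.54 to -0.48, and its difference at 24 h was -0.09 (adjusted p = 0.656).

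Among named genes with a higher response in KO, the largest difference was that of Tm4sf5. Tm4sf5, a tetraspan membrane protein gene, went from 4.58, 4.86 and 4.81 to 5.05, 5.54 and 5.89 in WT and from 4.57, 4.90 and 4.07 to 6.85, 7.26 and 6.22 in KO. RA levels of the KO lines were all above those of the WT lines, and DMSO levels overlapped. Tm4sf5 rose by 0.74 ± 0.31 (SD over the 3 WT lines) in WT and by 2.26 ± 0.11 in KO. The genotypes differed by 1.52 ± 0.24 (SE, 2.86-fold, limma, adjusted p = 0.000352). The same form was seen in Galnt15, a glycosyltransferase of mucin-type O-glycosylation (0.72 in WT, 2.16 in KO), Cbs, the first enzyme of transsulfuration (0.55 and 1.68), Gdap1l1 (1.77 and 2.81) and Bco1, which cleaves carotene to retinal (0.66 and 1.69). Both genotypes rose in each. Sstr2, a somatostatin receptor gene, and Dnah17, an axonemal dynein heavy chain gene, rose in KO by 1.39 and 1.19, and their WT changes of 0.26 and 0.14 did not pass (adjusted p = 0.16 and 0.49).

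Other genes in this group fell in WT. Aldh1b1, a mitochondrial aldehyde dehydrogenase gene, went from 6.33, 5.86 and 6.56 to 5.30, 4.96 and 5.36 in the WT lines, and from 6.31, 6.74 and 6.04 to 6.29, 6.80 and 6.11 in the KO lines. All RA levels of KO lay above those of WT. The WT change averaged -1.04 ± 0.15 and the KO change 0.04 ± 0.05 (SD over 3 lines each). The genotypes differed by 1.08 ± 0.17 (SE, 2.11-fold, limma, adjusted p = 0.000378). Mbp, the myelin basic protein gene, fell by 0.66 in WT and rose by 0.52 in KO (difference 1.18 ± 0.16, adjusted p = 6.09e-05), Btbd17 fell by 0.58 and rose by 0.66, and the F-box gene Fbxo27 fell by 0.50 and rose by 0.61. Pik3r6, a regulatory subunit gene of PI3K gamma, rose by 0.69 in KO with a WT change of -0.37 that did not pass (adjusted p = 0.11). Of these 12 named genes 10 passed in every fit without a line; Pik3r6 did not pass without KO12, KO21 or WT23, nor Gdap1l1 without KO21.

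**Figure D3:**
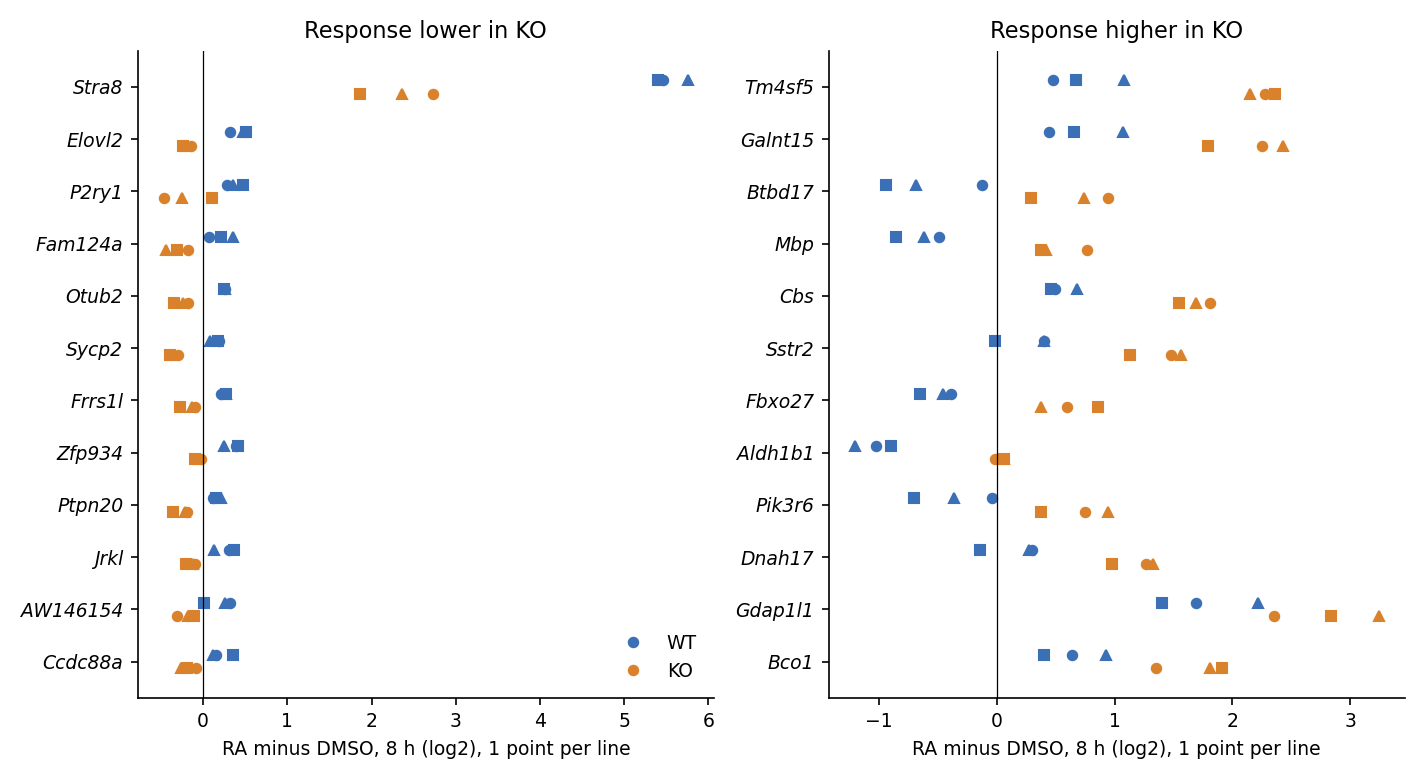
RA minus DMSO at 8 h (log2) in each WT line (blue) and KO line (orange) for the 12 named genes with the largest lower (left) and higher (right) responses in KO. The lines of the genotypes do not overlap for any gene shown, as the naming rule requires, and all genes on the left but Stra8 lie within 0.51 of 0 in every line.

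Several strongly RA-induced genes rose in both genotypes. Kit, the receptor tyrosine kinase that binds stem cell factor, rose by 2.60 in WT and 3.005 in KO, the RA-degrading enzyme gene Cyp26a1 by 2.94 and 3.72, the receptor gene Rarb by 2.51 and 2.81, Tcerg1l by 2.16 and 2.71 and the meiotic cohesin gene Rec8 by 1.84 and 2.09. The differences were 0.41, 0.78, 0.30, 0.55 and 0.25, all toward a higher response in KO, and none passed (limma, adjusted p = 0.395, 0.0954, 0.555, 0.127 and 0.0612). Gm4969, the gene now named Meiosin, rose by 0.32 in WT and by 0.27 in KO, a difference of -0.04 ± 0.12 (adjusted p = 0.905). The KO line differences were above the WT ones without overlap for Kit, Cyp26a1 and Rec8, as for 16% of all genes tested. They overlapped for Rarb, Tcerg1l and Gm4969.

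Of 12 receptors and corepressors of the RA pathway 3 had a higher response in KO and none a lower one, with a median difference of 0.15. Over all genes tested 2.97% were called higher and 0.584% lower, the shares to set beside this and the following lists. Rarg went from 9.90, 9.998 and 10.03 to 9.95, 9.81 and 9.82 in WT and from 9.84, 9.96 and 9.94 to 10.35, 10.35 and 10.31 in KO, so only KO lines stood apart, under RA. Its difference was 0.54 ± 0.09 (SE, adjusted p = 0.000581) and that of Rara 0.29 ± 0.08 (adjusted p = 0.0387). Rarg passed in each of the 6 fits without a line and Rara in 1. Of 16 genes of retinoid metabolism and binding Bco1 was the 1 called. No Hox gene was called among 18. Their differences had a median of 0.24 and were all positive, as were 8717 of the 16259 over all genes (Hoxc4 0.61 ± 0.22, adjusted p = 0.118; Hoxb1 0.58 ± 0.21, adjusted p = 0.125).

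The list for undifferentiated spermatogonia had 40 members tested. In WT RA lowered 21 and raised 3, and in KO it lowered 11 and raised 9, where 11.6% of all genes fell in WT and 3.78% in KO. The difference was called higher in KO for 4 and lower for 1, and 38 of the 40 were positive, with a median of 0.23. Sall3, a zinc finger transcription factor gene, went from 11.31, 10.94 and 11.46 to 10.23, 9.60 and 10.19 in WT and from 10.98, 11.51 and 11.04 to 10.65, 11.13 and 10.58 in KO. Every line was lower under RA, the KO lines by less. Sall3 fell by 1.23 in WT and 0.39 in KO, a difference of 0.84 ± 0.11 (SE, n = 3, limma, adjusted p = 5.47e-05). Nanos3, an RNA-binding protein gene of the germline, fell by 0.77 in WT, where the line values were -0.29, -1.12 and -0.89, and had a KO change of 0.02 that did not pass (difference 0.79 ± 0.17, adjusted p = 0.00579; not passing without KO12 or WT25). Neurog3, a transcription factor gene of early progenitors, fell by 0.75 in WT with a KO change of -0.05 (difference 0.70 ± 0.16, adjusted p = 0.0091). It did not pass without KO12 or WT25. Its exons overlap those of an antisense gene over 17.7% of their bases.

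The remaining called members of that list, outside the naming rule and chosen after their values were seen, are Sall4, which rose in both genotypes with a difference of 0.31 ± 0.06 (SE, adjusted p = 0.00259), and the RNA-binding Lin28b, with a difference of -0.26 ± 0.06 (adjusted p = 0.00907). Nanos2, which keeps male germ cells undifferentiated, fell by 1.42 in WT and 0.63 in KO, and the difference of 0.79 ± 0.24 did not pass (adjusted p = 0.0662), and an antisense gene overlaps 49.0% of its exon bases. Gfra1, the GDNF co-receptor, rose in both, by 0.30 and 0.43, with a difference of 0.13 ± 0.10 (adjusted p = 0.572). Zbtb16, a transcription factor gene of spermatogonial stem cells, fell by 0.44 and 0.21, with a difference of 0.24 ± 0.08 (adjusted p = 0.0999). Of 22 genes of differentiating spermatogonia 2 had a higher response in KO, the transcription factor genes Dmrtb1 at 0.43 ± 0.12 (adjusted p = 0.0374) and Sox4 at 0.39 ± 0.08 (adjusted p = 0.00552), and none a lower one. Dmrtb1 passed in 1 of the 6 fits without a line (that without WT17), with values from 0.34 to 0.53, and neither gene passed without WT25. Dmrtb1 fell in both genotypes and Sox4 in WT alone by the call, and 54.6% of the exon bases of Sox4 overlap an antisense gene.

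Targets and feedback genes of GDNF and FGF signalling had 4 of 28 higher in KO and none lower, with 26 positive and a median of 0.23. In WT 17 of them fell and 1 rose, and in KO 8 fell and 2 rose, against 1885 and 614 falling among all 16259 genes. Egr4, an early growth response transcription factor gene, went from 10.59, 10.52 and 10.73 to 9.93, 9.44 and 9.79 in WT and from 10.49, 10.86 and 10.76 to 10.68, 10.96 and 10.78 in KO. The WT lines under RA lay below all 9 other libraries at 8 h. Its difference was 0.99 ± 0.20 (SE, n = 3, limma, adjusted p = 0.00703; not passing without KO20). Mycn, the N-myc gene of GDNF-driven self-renewal, fell by 0.69 in WT with a KO change of 0.04 (difference 0.73 ± 0.11, adjusted p = 0.000157). The Egr corepressor Nab2 had a difference of 0.46 ± 0.11 (adjusted p = 0.0215), with 42.2% of its exon bases overlapping an antisense gene, and Il17rd, an inhibitor of FGF signalling outside the naming rule, 0.36 ± 0.07 (adjusted p = 0.00172). Among 31 immediate early genes 1 was called, Btg2 at 0.30 ± 0.08 (adjusted p = 0.0396). Of the list 12 fell in WT and 5 in KO, where 11.6% and 3.78% of all genes fell. Nab2 passed in 2 of the 6 fits without a line and Btg2 in 1.

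Feedback genes of cytokine signalling had 3 of 15 higher in KO and none lower (median 0.09). The kinase gene Pim1 rose by 0.57 in WT and 1.12 in KO (difference 0.55 ± 0.09, adjusted p = 0.000414), and the inhibitors Cish and Socs3 had differences of 0.45 ± 0.11 and 0.34 ± 0.08 (adjusted p = 0.019 and 0.0202). Antisense genes overlap 17.7% of the exon bases of Pim1 and 11.5% of those of Cish. FoxO-responsive genes had 3 of 16 higher and none lower, with 11 falling in WT and 2 in KO, where 11.6% and 3.78% of all genes fell. Fbxo32, a ubiquitin ligase of muscle atrophy, fell by 1.25 in WT and 0.70 in KO (difference 0.55 ± 0.13), the kinase gene Sgk1 had a difference of 0.52 ± 0.15 and the stress gene Sesn1 one of 0.42 ± 0.08 (limma, adjusted p = 0.0134, 0.0469 and 0.00133). Of these 6 genes Pim1 and Sesn1 passed in every fit without a line.

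Genes of the meiotic prophase had no higher and 2 lower calls among 38, Sycp2 and Tex12, a central element protein gene of the synaptonemal complex (-0.24 ± 0.07, adjusted p = 0.0451). Neither passed in any of the 6 fits without a line, in which Tex12 ranged from -0.28 to -0.21, and Tex12 did not pass with the GC trend removed (adjusted p = 0.576). The median difference was -0.06, with 7 of 38 positive. In WT 8 members rose and in KO 2, where 9.34% and 7.95% of all genes rose. None of 24 piRNA pathway genes was called (median -0.0019; Dazl -0.17 ± 0.06, adjusted p = 0.082). DNA replication genes of the G1/S phase rose in 18 of 40 cases in WT and 4 in KO, against the same 9.34% and 7.95%. Their differences had a median of -0.06 with 9 of 40 positive. Of the list, 1 was called higher in KO and 1 lower, the higher one being Chaf1b, a chromatin assembly factor gene (0.49 ± 0.10, adjusted p = 0.00579). None of 30 mitotic genes was called (median -0.04; Ndc80 -0.16, adjusted p = 0.201; Cdc25c 0.25, adjusted p = 0.225).

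Signalling and chromatin lists held single strong members. Dtx1, a ubiquitin ligase gene of the Notch pathway, rose by 0.85 in KO with a WT change of -0.07 (difference 0.92 ± 0.13, adjusted p = 0.000103), and the Notch target Hes1 had a difference of 0.34 ± 0.08 (adjusted p = 0.0117), the 2 called of 27. Of 40 Wnt and TGF-beta or BMP genes 4 were higher in KO and none lower. They were Smad3, a transducer of TGF-beta (0.75 ± 0.13, adjusted p = 0.00113), the receptor gene Lgr6 (0.53 ± 0.14, adjusted p = 0.0356), the ligand gene Wnt3 (0.49 ± 0.09, adjusted p = 0.00161) and Fzd7 (0.33 ± 0.08, adjusted p = 0.0199). The DNA hydroxymethylase gene Tet1 fell by 0.64 in WT with a KO change of 0.18 (difference 0.82 ± 0.18, adjusted p = 0.00648), and the histone methylation genes Ezh1 and Jarid2 had differences of 0.21 and 0.20 (adjusted p = 0.0429 and 0.0323), the 3 called of 32. Ezh1 and Jarid2 each passed in 1 of the 6 fits without a line, Lgr6 in 2, Hes1 in 4 and Tet1 in 5. Dtx1, Smad3 and Wnt3 passed in all 6.

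Stress and metabolism lists had few calls. Gadd45g, a growth arrest gene, rose by 1.07 in KO with a WT change of 0.18 (difference 0.89 ± 0.15, adjusted p = 0.000733) and Bik, a pro-apoptotic gene, by 0.82 and 0.28 (difference 0.54 ± 0.13, adjusted p = 0.0173), the 2 called of 35 in their list. Gadd45g passed in each of the 6 fits without a line and Bik in 2. Of 24 cholesterol synthesis genes 1 was called, higher in KO, while 9 fell in WT and none in KO, where 11.6% and 3.78% of all genes fell. No glycolysis gene was called among 24 (median 0.15; Hk1 0.23, adjusted p = 0.0611; Ldhb 0.36, adjusted p = 0.166), nor any of 7 mitochondrially encoded genes (median -0.12; mt-Nd2 and mt-Nd1 at -0.13 each, adjusted p = 0.361 and 0.41). In all, 42 of 544 list genes tested were called, where 3.55% of all genes were, and the lists were chosen with earlier results of these data known.

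**Figure D4:**
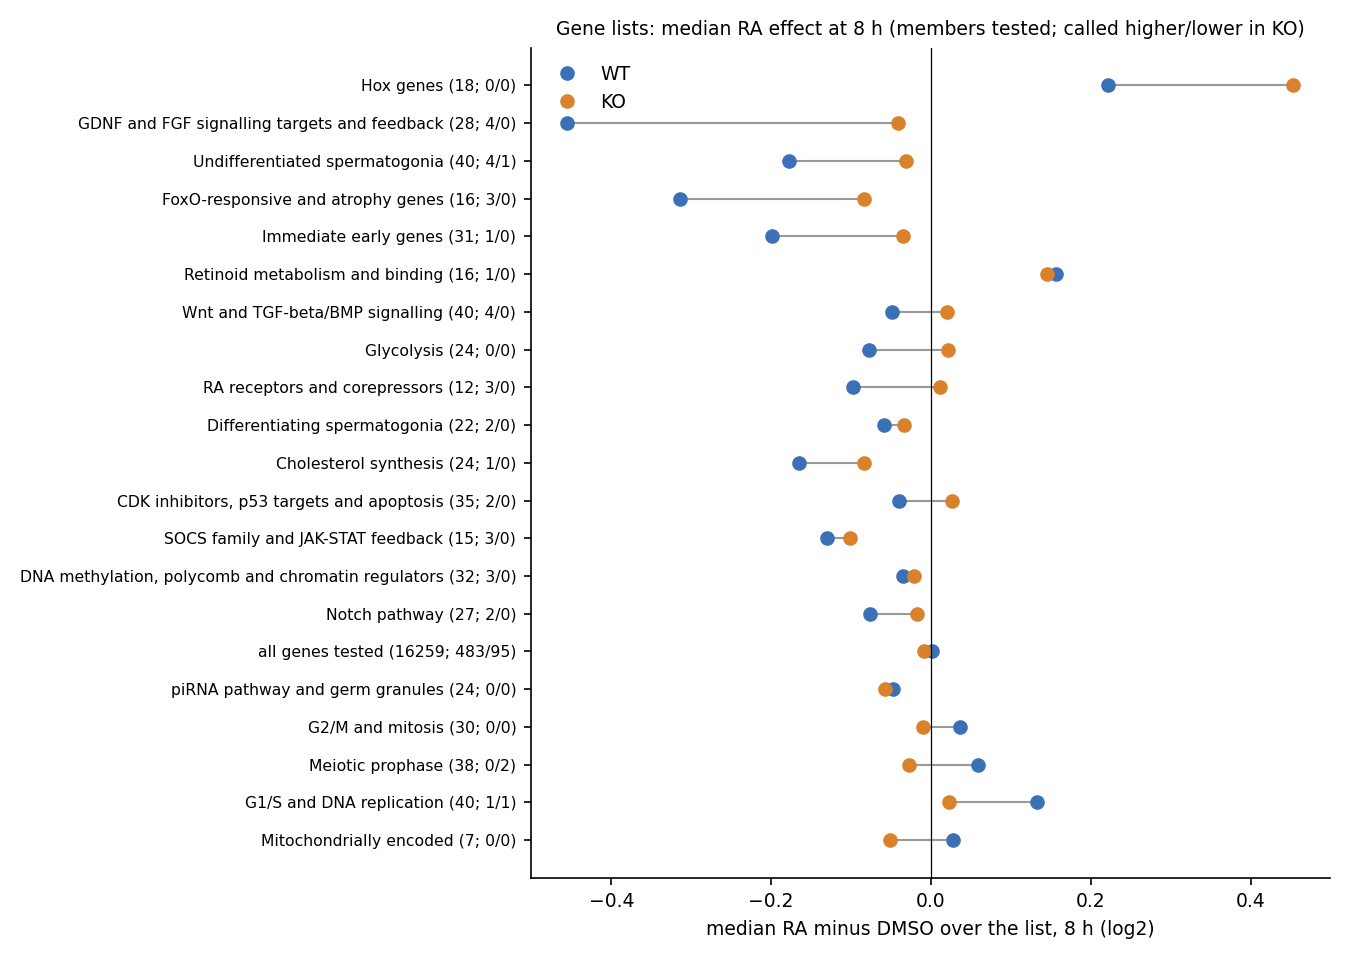
Median RA minus DMSO at 8 h (log2) over each gene list in WT (blue) and KO (orange), ordered by the median difference between genotypes, with the number of members tested and of members called higher and lower in KO in brackets (a list of 5 is left out). GDNF and FGF targets are at -0.46 in WT and -0.04 in KO and Hox genes at 0.22 and 0.45, whereas G1/S genes are at 0.13 and 0.02.

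Markers of other cell types were measured in the same libraries. Feeder fibroblast markers had no call among 21 and a median difference of 0.29 with 20 positive (Mmp2 0.57, adjusted p = 0.423; Col1a1 0.24, adjusted p = 0.425), and their mean level spanned 9.43 to 10.45 over the 12 libraries, with overlap between all 4 groups. This median difference hung on single WT lines, at -0.0161 without WT17 and 0.615 without WT23, and was 0.2162 to 0.292 without any other line. Sertoli markers had none called among 11 (Wt1 0.53, adjusted p = 0.166; Rhox5 0.44, adjusted p = 0.205), with Amh, Gata1 and Fshr below the level tested. Myh11 was the 1 called of 6 Leydig and peritubular markers (0.47 ± 0.13, adjusted p = 0.0489) and Pecam1 the 1 called of 10 macrophage and endothelial markers (0.51 ± 0.14, adjusted p = 0.0367), and neither passed in any fit without a line. None of 4 spermatid markers was called (Odf1 0.29, adjusted p = 0.51; Tnp1 0.11, adjusted p = 0.824), nor any of 9 germ cell markers (Cdh1 0.53, adjusted p = 0.0998). The mean level of the 10 macrophage and endothelial markers was 5.93 to 6.02 in WT under RA and 6.07 to 6.45 in KO under RA, with no overlap, and 6.09 to 6.24 and 6.108 to 6.401 in DMSO. Mrc1 averaged log2 8.06 over the 12 libraries, and Csf1r, Adgre1 and Emcn were below the level tested. The part of the other cell types in the lists' differences was not tested.

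KO and WT differed at more genes under RA than under DMSO. At 8 h of DMSO limma called 4 genes between KO and WT (0.0246%) and at 8 h of RA 1953 (12%; 1114 higher in KO, 6.85%, and 839 lower, 5.16%), with 2 in untreated cultures (0.0123%). Of 16259 genes, 1336 in DMSO and 957 untreated had an unadjusted p under 0.05. The 483 genes with a higher response in KO had a median KO minus WT of -0.03 in DMSO and 0.43 in RA at 8 h, and the 95 with a lower one 0.04 and -0.23. With the 8 h libraries alone 1062 genes passed in RA and 0 in DMSO, where 1047 had an unadjusted p under 0.05. These within-condition comparisons treat the libraries of a line as independent.

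RA minus DMSO at 24 h, taken from other libraries of the same lines, had the same direction for most called genes. At 24 h, 475 of the 483 genes had a higher response in KO and 441 were called so, where 17.8% of all genes were called higher, with a median difference of 0.74. Of the 95 lower genes 92 were lower at 24 h and 66 were called so, where 14% of all genes were called lower, with a median of -0.32. The spread is estimated over both times together, and 2 samples are labelled as WT17 under RA at 24 h while the table has 1 column of that name, so which of them it holds, or whether it holds both, is unknown. The difference between the 24 h and 8 h interaction passed for 634 genes (3.9%; 2.66% more positive and 1.24% more negative at 24 h), among them 126 of the 483 with a larger difference at 24 h and 4 with a smaller one. At 4 h of RA against untreated lines, Stra8 was the 1 gene called between genotypes (0.00615%; -2.26, limma, adjusted p = 0.00881). There 394 of the 483 and 92 of the 95 had the sign they had at 8 h, at medians of 0.10 and -0.10. The median over all genes was 0.0039, and their signs were not counted. Unlike the 8 h comparison, that at 4 h has no DMSO control, so it also holds any effect of vehicle and culture time that differs between genotypes.

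Some genes grew between the times and others did not. Dnah17 went from a difference of 1.05 at 8 h to 2.64 at 24 h, Dtx1 from 0.92 to 2.47, Nanos3 from 0.79 to 2.01, Gdap1l1 from 1.04 to 2.44 and Sall3 from 0.84 to 1.79, and the growth passed in each (limma, adjusted p from 9.8e-06 to 0.0058). Gfra1 and Zbtb16, not called at 8 h, had differences of 1.10 and 0.87 at 24 h (adjusted p = 1.2e-08 and 4.7e-09). Stra8 had -3.22 and -3.75 and Ccsap 0.87 and 1.13, and neither growth passed (adjusted p = 0.56 and 0.30). Of the 578 genes 11 had the opposite sign at 24 h, and Ube2r2 and Elf4, named after their values were seen, were called in the opposite direction there (-0.20, adjusted p = 0.0243, and -0.24, adjusted p = 0.00162).

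**Figure D5:**
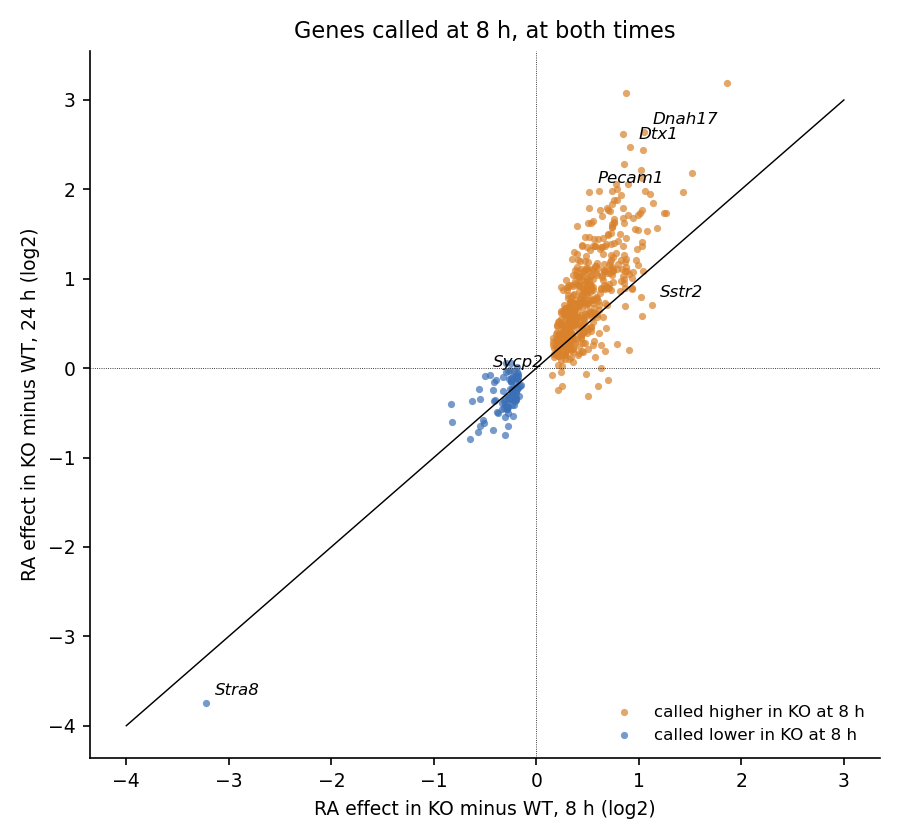
Difference of the RA effect, KO minus WT (log2), at 24 h against 8 h for the 578 genes called at 8 h, with the line of equal differences. Higher genes (orange) lie mostly above the line, at a median of 0.74 against 0.46, and 11 genes have opposite signs at the 2 times.

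At 24 h RA changed 46.6% of genes in WT and 29.4% in KO, and these genes can be followed back to 8 h. The 3666 genes that rose in WT at 24 h had a median 8 h change of 0.10 in WT and 0.02 in KO, and the 3911 that fell had -0.12 and -0.05. At 8 h, 1004 of the 3666 had risen in WT and 576 in KO, and 1487 of the 3911 had fallen in WT and 437 in KO. The interaction at 8 h was called lower in KO for 61 of the 3666 and higher for 56. Of the 3911 it was called higher for 332 and lower for 2. Over all genes 2.97% were called higher and 0.584% lower. Of the 2424 genes that rose in KO at 24 h, 685 had risen in WT at 8 h and 1041 in KO. Among them 271 were called higher and 3 lower. Of the 2361 that fell in KO at 24 h, 702 had fallen in WT at 8 h and 411 in KO. Here 53 were called higher and 30 lower.

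Transcript base composition moved with the direction of the difference. Genes with a higher response in KO had a median transcript GC content of 54.2% and those with a lower one 43.9%, against 50.7% over all genes. Below 42% GC 0.0825% of genes were called higher in KO and 2.23% lower, and above 54% GC 4.93% were called higher and 0.0594% lower. Across 16208 genes in a line, Spearman's rho of RA minus DMSO with GC content was 0.03, 0.15 and 0.14 in KO12, KO20 and KO21 and -0.13, -0.27 and -0.13 in WT17, WT23 and WT25, values that share each line's 2 libraries. Against untreated cultures, in the same order of lines, DMSO at 8 h had 0.121, 0.033 and -0.057 in KO and 0.101, 0.129 and 0.153 in WT. RA at 8 h had 0.128, 0.135 and 0.067 in KO and -0.011, -0.144 and 0.031 in WT. The WT values thus lay partly in the DMSO libraries, and their cause was not tested. With a smooth GC trend removed from each library 354 genes were called, 250 higher and 104 lower, 281 of them among the 578. Stra8, Ccsap and the 12 highest named genes passed there too, whereas Zfp934, Ptpn20, Jrkl, AW146154, Rara, Neurog3, Dmrtb1, Nab2 and Btg2 were among the 24 of 59 named calls that did not.

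Motifs in the promoters differed little between called genes and all genes. RefSeq promoters were matched by symbol for 11521 of the 16259 genes, 366 of the 483 and 82 of the 95. CNCCTCAG was present on either strand in 12.3% of the promoters of the higher genes, 11% of those of the lower ones and 9.19% of all. AGGTCA or AGTTCA was present in 22.7%, 20.7% and 20.7%. Of the named genes, Tm4sf5, Jrkl, Tex12, Dazl and Sgk1 hold CNCCTCAG in these windows, and the Tm4sf5 promoter is printed above. A match describes the letters and not a bound site.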

How the data were processed

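RNA levels came from stranded mRNA libraries, per the labels' protocols. The deposited table holds log2 values, already scaled between libraries by the authors, for 46983 genes in 42 columns, and ranges from -4.5 to 18.02. Per the submitters' processing notes, STAR 2.5.1b, DESeq and build GRCm38.p4 were used, with no role given. No source used here names the counting program or how it treated strand. Read totals are not kept in such values, which leaves depth unknown and allows no interval for counting error. Whether the scaling shrank changes of genes with few reads was not tested.

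Because the values are logs, limma on log2 values replaced a count test. The 6 DMSO columns at 4 h were left out of the fit. Genes at 10 or more on the linear scale (2 to the power of the deposited value) in at least 3 of the remaining 36 libraries were kept, 16259 in all. A linear model with 1 mean for each of 12 groups and the line as a block was fitted with limma 3.58.1 in R 4.3.3 (trend and robust options; 20 residual degrees of freedom). P-values are two-sided and were adjusted by Benjamini-Hochberg over all genes tested, with a threshold of 0.05. Comparisons of KO with WT within a condition were fitted without the block, because lines are nested in genotype, and treat libraries of a line as independent. SE marks the error of a fitted log2 change and SD the spread over n = 3 lines.

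The line name comes from the labels. Deviations from the group mean of the DMSO and RA libraries of one line at 8 h correlated between 0.31 and 0.82 over 12600 genes, and the block was kept. A line's DMSO library correlated at most at 0.13 with the RA library of another line of its genotype. Centring on a mean of 3 lines pushes these other values down where same-line values are positive, so that contrast adds little. The gene members, lists, tests and naming rule were chosen with earlier results of these data known. The rule named the 12 largest differences in each direction past the threshold, with no overlap between lines of the 2 genotypes and a group mean of at least 50 on the linear scale (predicted genes and clones left out), 11 fixed genes, and per list up to 3 called members or else up to 2 with the smallest p. The fit was tested on simulated data: of 50 genes changed by a log2 of 0.25 in the 8 h comparison 30% were recovered, by 0.5 54%, by 1 98% and by 1.5 100%, and 6% of the calls were genes left unchanged. Its noise was drawn independently for each gene and library. Trends shared by many genes, such as those with GC content, were not in it, so these rates need not hold for the data. A few named genes are not reported here, though they are counted. Alternatives covered the spread, block, libraries, filter, scaling, moderation, single lines and, added after seeing the data, transcript GC content and length. Transcript features came from GENCODE vM21 and promoters from RefSeq. Python 3.11.15 with matplotlib 3.10.9 drew the figures.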

Additional observations from a re-analysis of the deposited data

Results flagged for a closer look

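Named genes whose RA response at 8 h passed the test of a difference between genotypes, 56 in all, are given here as log2 differences, KO minus WT. No cause was tested for any of them.

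Of the genes with a lower response in KO, Stra8 had -3.22, Elovl2 -0.63, P2ry1 -0.57, Fam124a -0.52, Otub2 -0.51 and Sycp2 -0.50. Frrs1l and Zfp934 had -0.42, Ptpn20 and Jrkl -0.41, AW146154 -0.40 and Ccdc88a -0.38. Tex12 had -0.24.

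Of the genes with a higher response, Tm4sf5 had 1.52, Galnt15 1.43, Btbd17 1.24, Mbp 1.18, Cbs 1.14, Sstr2 1.13, Fbxo27 1.11 and Aldh1b1 1.08. Pik3r6 had 1.06, Dnah17 1.05, Gdap1l1 1.04, Bco1 1.03, Egr4 0.99, Dtx1 0.92, Gadd45g 0.89, Ccsap 0.87 and Sall3 0.84. Tet1 had 0.82, Nanos3 0.79, Smad3 0.75, Mycn 0.73, Neurog3 0.70, Fbxo32 and Pim1 0.55, and Rarg and Bik 0.54. Lgr6 had 0.53, Sgk1 0.52, Pecam1 0.51, Chaf1b and Wnt3 0.49, Myh11 0.47, Nab2 0.46, Cish 0.45, Dmrtb1 0.43, Sesn1 0.42 and Sox4 0.39. Socs3 and Hes1 had 0.34, Btg2 0.30, Rara 0.29, Ezh1 0.21 and Jarid2 0.20.

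The genotype difference itself was larger at 24 h than at 8 h, by a test of that growth, for 17 named genes. The growth was 1.59 for Dnah17, 1.55 for Dtx1, 1.46 for Pecam1, 1.40 for Gdap1l1, 1.22 for Nanos3 and 1.09 for Bco1. It was 0.97 for Gfra1, 0.95 for Sall3, 0.84 for Fbxo27, 0.78 for Dmrtb1, 0.66 for Mycn, 0.63 for Zbtb16, 0.57 for Nab2, 0.56 for Pim1 and 0.52 for Wnt3. The mitochondrially encoded mt-Nd2 and mt-Nd1 had 0.45 and 0.42, from differences of -0.13 each at 8 h to 0.31 and 0.29 at 24 h.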

How the results depend on the processing

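All 578 genes called kept their sign in every alternative in which they were tested, but counts of calls moved. The kept signs are little support, because most of these alternatives could not change them. Those of block, spread, libraries, filter and moderation leave the estimate itself as it was. Where the line differences of the genotypes do not overlap (482 of the 483 and 95 of the 95), leaving out a line cannot turn the sign. Pairing by line, which the labels give, entered as a block; with no replicate block 72 genes were called (70 higher in KO, 2 lower; 97.2% higher against 83.6%), 11 list members instead of 42, 1928 instead of 3404 RA changes in WT, 1057 instead of 1906 in KO, and 71 instead of 507 genes called the same way at 24 h. The 8 h libraries alone gave 1389 (1034 and 355; 74.4% higher), 131 list members, 1062 instead of 1953 genes between genotypes under RA and 0 instead of 4 under DMSO. All 42 libraries, with DMSO at 4 h, gave 52 (51 and 1; 98.1% higher), Stra8 not passing (-3.22, adjusted p = 0.133), 5 list members, 1502 and 884 RA changes in WT and KO, 50 genes at 24 h, and 550, 2 and 0 between genotypes under RA, DMSO and untreated. With no filter on low values 345 passed (315 and 30), 311 at 24 h, and 7 instead of 2 untreated. Quantile normalization called 219 lower and 7 under DMSO. Without trend and robust options 1 passed under DMSO. Removing a GC trend gave 354 (250 higher, 104 lower; 70.6% higher), 26 list members and 311 at 24 h, and removing an exon length trend gave 628 (336 and 292; 53.5% higher). These last 2 were chosen after seeing the data.

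Leaving out each line in turn gave 212 to 488 calls, 200 to 443 higher, 9 to 45 lower, 21 to 44 list members, 2021 to 3202 RA changes in WT, 1108 to 2329 in KO, 198 to 449 at 24 h, and 1003 to 1666, 0 to 7 and 0 to 7 genes between genotypes under RA, DMSO and untreated. Between 16 (without WT17) and 30 (without KO21) of the 59 named calls were lost. Fewer lines enter these fits. Depth is unknown, and 3 lines a genotype limit precision. The simulation, with noise independent between genes, recovered 30% of changes of log2 0.25, a rate that need not hold for the data.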

Other observations

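Krt73, a keratin gene below the level at which genes were named and chosen here after its values were seen, had a response 1.86 ± 0.20 (log2, SE, n = 3 lines) higher in KO. It rose by 2.19 in KO, and the WT change of 0.32 did not pass (limma, adjusted p = 3.18e-06 for the difference and 0.107 for WT). Called genes were mostly protein coding, with 472 of the 483 higher and 91 of the 95 lower. Genes with a higher response in KO had longer exon sequence in all, with a median of 4742 bases, than all genes tested, with 3652, and those with a lower response lay between, at 4199.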
